A study of Mus musculus with 6 samples.

Results

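The Myc family and its Max network were examined in sorted nephron progenitors of the embryonic mouse kidney through 10 genes: Myc, Mycn, Mycl, Max, Mga, Mxi1, Mxd3, Mxd4, Mnt and Mlx. They were taken by name from the 27179 Entrez Gene entries of the RPKM table that the authors deposited, and each of the 10 was found and passed the filter on low values. The mutant group held 3 pools of cells from Six2TGC;miR-17~92fl/fl kidneys, in which a floxed microRNA cluster is deleted by Cre, and the control group held 3 pools from Six2TGC kidneys, which carry the same GFP-Cre transgene driven by Six2 and for which the labels name no floxed allele. All kidneys were taken at E16.5, cells were isolated on Six2-driven GFP, and each pool combined 4 embryos. Cre is made where the Six2 transgene is active, so the deletion is limited to that lineage. The p-values measure the spread between the pools.

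Myc proteins bind DNA as partners of Max at the E-box and raise the transcription of genes for ribosome building, metabolism and the cell cycle. Mxi1, the Mxd proteins, Mnt and Mga compete for Max and repress, and Mlx is another hub that pairs with the glucose sensors Mlxip and Mlxipl and with some Mxd proteins and Mnt. Mycn is required for growth of the developing mouse kidney, and Myc proteins are known activators of the miR-17~92 locus, whose microRNAs in turn silence mRNAs through short matches to their seed. RNA of a bulk pool is a sum over its cells, so fewer cells of a type and less RNA per cell cannot be told apart.

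The mature microRNAs of the deleted cluster are shown because their seeds define the sites searched for in the members. The sequences are those of RefSeq on GRCm38.p6, where the cluster lies on chromosome 14, plus strand. Capitals mark the seed, bases 2 to 8. miR-17-5p and miR-20a-5p share 1 seed, and miR-19a-3p and miR-19b-3p share another.
mmu-miR-17-5p: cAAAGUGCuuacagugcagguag
mmu-miR-20a-5p: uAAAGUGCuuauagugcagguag
mmu-miR-18a-5p: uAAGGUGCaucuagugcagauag
mmu-miR-19a-3p: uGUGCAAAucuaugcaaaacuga
mmu-miR-19b-3p: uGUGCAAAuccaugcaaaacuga
mmu-miR-92a-3p: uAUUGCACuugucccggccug

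The annotated 3' UTR of Mycn, 913 bases long (GENCODE M21, mm10, chromosome 12, minus strand), held 1 site for the miR-19 seed, and 1 each for the miR-18 and miR-17 seeds that lie 2 bases apart. Mycl, Mga and Mxd4 each held a full miR-19 site, and Mnt held a full miR-17 site. A full site matches the whole seed and has an adenine after it, and shorter sites lack either that adenine or the match to the last seed base. Capitals mark the matched bases, and the 2 blocks in the first line are the miR-18 and the miR-17 site in that order.
Mycn, chr12:12936133-12936161: agtgctGCACCTTAgaGCACTTTgaaata
Mycn, miR-19 site at chr12:12936969-12936976: tcactgccacTTTGCACAttttgatttt
Mycl, miR-19 site at chr4:123000589-123000596: cttttagtaaTTTGCACAttttggttac
Mga, miR-19 site at chr2:119969072-119969079: gaataaactgTTTGCACAgaattgttgc
Mxd4, miR-19 site at chr5:34174552-34174559: ctctctaccaTTTGCACAgtatggccat
Mnt, miR-17 site at chr11:74844638-74844645: acctcccaggGCACTTTAttattattat

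Across the members, 6 of 10 held at least 1 site for the cluster, against 47.5% of the 11573 tested genes with an annotated 3' UTR, and the members' UTRs had a median of 1634.5 bases against 1231 bases. The miR-17 seed was matched in 5 members (22.8% of tested genes), miR-19 in 5 (20.2%), miR-18 in 2 (14.7%) and the miR-92 seed in 0 (14.5%). Mga, with the longest UTR at 4616 bases, had 3 miR-17 sites and 1 miR-19 site, and Mxi1 had 1 miR-17 site in 4074 bases. The Mxd4 and Mxi1 sites lie outside the loci of their Entrez Gene entries (chr5:34176580-34187710 and chr19:53310128-53373293). Both sites rest on the longer UTRs of GENCODE. Myc, Max, Mxd3 and Mlx had no site in their UTRs of 466, 1299, 615 and 1042 bases. These matches are of letters only and were not measured as binding.

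**Figure D1:**
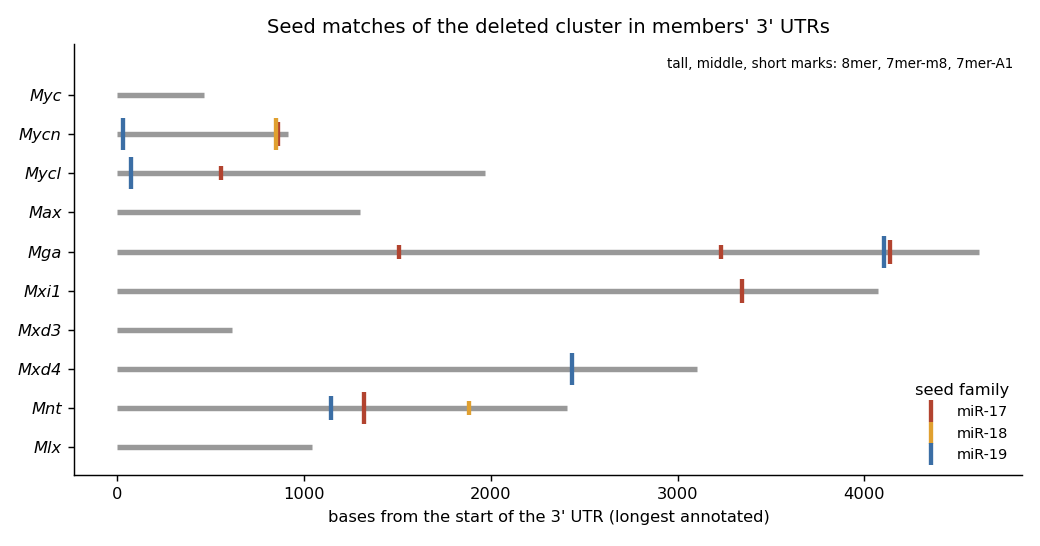
Seed matches of the cluster in the annotated 3' UTR of each member, as distance in bases from the start of the UTR on the x axis, with 1 line per gene and 1 mark per site coloured by seed family. Mycn carries a miR-19 site near the start and adjoining miR-18 and miR-17 sites near the end of its 913 bases, and Myc, Max, Mxd3 and Mlx carry none.

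The depth behind the RPKM values, recovered from their step size, was 27602025 to 36134381 counted reads per library. On a gene of 1 kb, 1 read was therefore worth 0.0277 to 0.0362 RPKM. Mitochondrial ribosomal RNA took 32.2% to 38.2% of counted reads in mutants and 27.0% to 30.4% in controls, and these reads are part of the depth by which RPKM values are divided. The median log2 difference of all 13463 tested genes, mutant minus control, was -0.12. Of these genes, 422 (3.13%) passed a limma adjusted p of 0.05, 178 (1.32%) of them higher and 244 (1.81%) lower in mutants. The Mir17 precursor entry had 2, 0 and 0 reads in mutant pools 1, 2 and 3, against 31, 26 and 16 reads in control pools 1, 2 and 3, and fell (limma adjusted p = 8.54e-05). Mir18 and Mir20a had 0 reads in every mutant pool, against 2, 8 and 6 reads (Mir18) and 4, 2 and 4 reads (Mir20a) in controls, and fell (limma adjusted p = 0.00347 and 0.00727). Of 17 alternatives, Mir20a had a fit in 14 and passed in 12. It did not pass with voom or without mutant 2 (adjusted p up to 0.0665). The mutant means of Mir17, Mir18 and Mir20a were below the filter of 0.5 RPKM, so these entries were tested because of their control values. Mir19a, Mir19b-1 and Mir92-1 were below the filter, with 0 reads in mutants and 5, 2 and 0 reads in all controls. The host transcript entry Mir17hg had 259, 183 and 194 RPKM in mutants, against 45.4, 33.6 and 52.9 RPKM in controls, and rose by 2.26 on the log2 scale (limma adjusted p = 4.93e-05). This entry lies at chr14:115044390-115046728, beyond the Mir17, Mir18, Mir19a and Mir20a entries, and its value does not cover them. Among markers, the summed level of 10 nephron progenitor genes was 584 to 694 RPKM in mutants and 744 to 803 RPKM in controls, and 1 of the 10 passed, lower in mutants. Six2 itself averaged 65.8 ± 10.2 RPKM in mutants and 85.7 ± 17.0 RPKM in controls, and Cited1, a marker of the least committed progenitors, averaged 17.4 ± 3.28 RPKM in mutants and 23.0 ± 4.32 RPKM in controls (SD, n = 3 each). Neither passed (limma adjusted p = 0.249 and 0.235). The list was not uniform, since 2 of the 10 had a positive log2 difference, Itga8 at 0.34 and Wt1 at 0.14. Itga8 had 79.5 to 82.2 RPKM in mutants and 58.7 to 73.8 RPKM in controls, without overlap. Eya1, which had the highest level of the 10 and so the largest part of the sum, differed by -0.28. Itga8, Wt1 and Eya1 did not pass. Summed markers of renal vesicles were 105 to 132 RPKM in mutants and 95.8 to 115 RPKM in controls (2 of 7 tested genes passed, both higher), and those of interstitium 114 to 190 RPKM in mutants and 62.6 to 150 RPKM in controls (0 of 8). Both of these sums overlapped between the groups. The 10 macrophage markers summed to 13.0 to 15.2 RPKM in mutants and 5.22 to 8.36 RPKM in controls (3 of 5 tested genes passed, higher). The 7 tubule markers summed to 6.61 to 19.5 RPKM in mutants and 3.79 to 4.70 RPKM in controls (1 of 4 tested genes passed, higher). Called genes in both lists, the tubule gene included, had control means below the filter of 0.5 RPKM. They entered the test through their mutant values, so these counts are given as a description. Sums overlapped between the groups for ureteric bud markers (3.28 to 9.32 RPKM in mutants, 2.21 to 6.14 RPKM in controls) and endothelial markers (3.85 to 4.78 RPKM in mutants, 2.54 to 4.82 RPKM in controls). They also overlapped for podocyte markers (3.64 to 10.3 RPKM in mutants, 6.15 to 6.70 RPKM in controls) and erythroid markers (7.15 to 11.8 RPKM in mutants, 5.94 to 13.0 RPKM in controls). No gene in these marker lists was at 0 in all libraries. Xist was at 60.1, 180 and 122 RPKM in mutant pools and at 154, 0.0340 and 0.0278 RPKM in control pools, so the pools differed in the sex of their embryos, and no member lies on a sex chromosome. The part of marker levels, ribosomal RNA and sex in the member values below was not tested.

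None of the 10 members passed the limma threshold in the comparison of mutant with control, where 3.13% of all tested genes did. An unadjusted p under 0.05 was found for 4 members, Mycn with a positive and Myc, Mxi1 and Mxd4 with a negative difference, and for 19.6% of all tested genes. The groups did not overlap for Mycn, higher in mutants (7.06% of all genes did so in that direction), and for Max, lower in mutants (18.0%). The members' median log2 difference was -0.27, with 3 members above and 7 below the median of all genes. With limma voom on recovered reads, 1 member passed, Mycn.

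**Figure D2:**
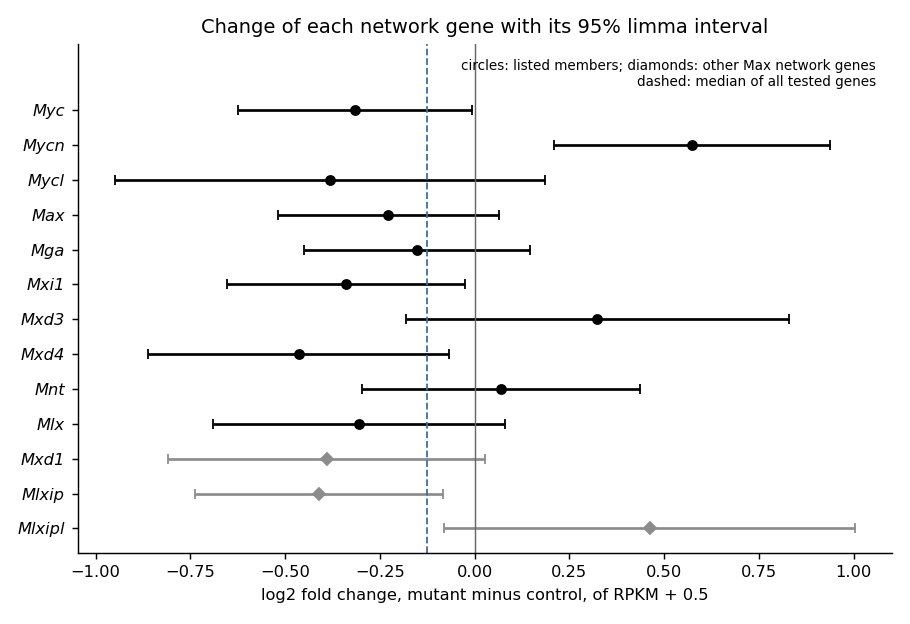
Log2 difference of each member, mutant minus control, on the log2(RPKM + 0.5) scale, as points with 95% intervals from limma (circles for the 10 members, diamonds for 3 other network genes), and a dashed line at the median of all tested genes (-0.12). Mycn stands highest at 0.57 and Mxd4 lowest at -0.46, and no member passed an adjusted p of 0.05.

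Among the 3 Myc family genes, which encode the transcription factors that partner with Max, none passed the test, and only the groups of Mycn did not overlap. Here and below, the coordinates beside an Entrez Gene ID are the GENCODE M21 locus, which can differ from that of the Entrez entry. Mycn (Entrez Gene 18109, mm10 chr12:12936093-12941914) had 29.0, 22.1 and 27.2 RPKM in mutant pools 1, 2 and 3, against 19.9, 18.9 and 13.6 RPKM in control pools 1, 2 and 3. Every mutant pool lay above every control pool, with control 3 the lowest of all. The means were 26.1 ± 3.57 RPKM in mutants and 17.5 ± 3.39 RPKM in controls (SD, n = 3 each), a ratio of 1.49. The log2 difference was 0.57 (SE 0.17, 95% interval 0.21 to 0.94) and did not pass (limma adjusted p = 0.0977). An exact two-sided permutation test gave p = 0.1, the smallest that 3 pools against 3 allow. The adjusted p of limma ranged from 0.0273 to 0.256 over 17 alternatives, and 4 of them passed: median-of-ratios scaling (difference 0.68, adjusted p = 0.0343), quantile normalization (0.72, 0.0273), depth without mitochondrial ribosomal RNA (0.70, 0.0371) and voom on recovered reads (0.58, 0.0395). Relative to the median of all genes, the difference of Mycn was 0.70. Without control 3 it was 0.41, the smallest of the leave-one-out values (limma adjusted p = 0.0925).

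Myc (Entrez Gene 17869, chr15:61985391-61990374), the founding member of the family, had 34.7, 38.1 and 44.1 RPKM in mutants, against 43.7, 46.7 and 55.4 RPKM in controls. The groups overlapped by a narrow margin, since mutant 3 was above control 1. Means were 39.0 ± 4.73 RPKM in mutants and 48.6 ± 6.09 RPKM in controls (SD, n = 3 each), with a log2 difference of -0.32 (SE 0.14, interval -0.62 to -0.01) that did not pass (limma adjusted p = 0.248). Relative to the median of all genes it was -0.19, and it was -0.21 under median-of-ratios scaling, -0.14 under quantile normalization and -0.20 with depth without mitochondrial ribosomal RNA. Mycl (Entrez Gene 16918, chr4:122995652-123002485), the family member first found in lung cancer, had the lowest level of the members, near the filter of 0.5 RPKM. It had 0.963, 0.226 and 0.642 RPKM in mutants, against 0.9496, 0.783 and 0.945 RPKM in controls, from 22 to 102 reads per library. Mutant 2 was low and the groups overlapped (difference -0.38, SE 0.26, limma adjusted p = 0.421). The difference was -0.11 without mutant 2, -0.61 without mutant 1, -0.64 with a pseudocount of 0.1 and -0.74 with voom.

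The relative level of Mycn within the family was higher in mutant pools. Mycn divided by Myc, both as RPKM per length, was 0.835, 0.580 and 0.616 in mutants, against 0.455, 0.406 and 0.245 in controls. No mutant pool overlapped the controls in this ratio, which as a quotient of values from 1 library does not depend on that library's depth. Mycn made up 44.8%, 36.6% and 37.8% of the summed RPKM of Myc, Mycn and Mycl in mutants, against 30.8%, 28.5% and 19.4% in controls. The sum itself was 64.6, 60.4 and 71.9 RPKM in mutants, against 64.5, 66.4 and 70.0 RPKM in controls, and the groups overlapped. Mean sums were 65.6 ± 5.79 RPKM in mutants and 67.0 ± 2.76 RPKM in controls (SD, n = 3 each). These ratios and sums were formed from genes chosen for the report and are given as a description, without a test.

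**Figure D3:**
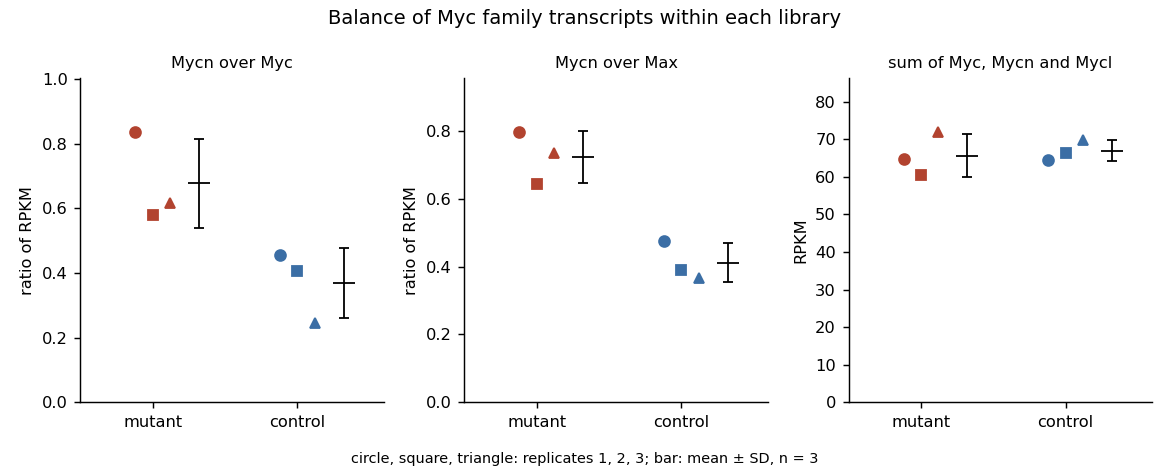
Balance of the family in each pool, as ratios of RPKM and as summed RPKM, with mutants left of controls, 1 point per pool and bars for mean ± SD (n = 3). The ratio of Mycn to Myc lies at 0.580 to 0.835 in mutants and 0.245 to 0.455 in controls, whereas the summed RPKM of Myc, Mycn and Mycl overlaps between the groups.

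The 2 hubs, Max and Mlx, did not pass the test. Max (Entrez Gene 17187, chr12:76937269-76962201), the obligate partner of the Myc proteins, had 36.4, 34.4 and 37.0 RPKM in mutants, against 41.7, 48.6 and 37.0 RPKM in controls. The groups were separated by only 0.0130 RPKM, the gap between mutant 3 and control 3. The log2 difference was -0.23 (SE 0.13, interval -0.52 to 0.06, limma adjusted p = 0.358). It was -0.10 relative to the median of all genes, -0.13, -0.053 and -0.11 under median-of-ratios scaling, quantile normalization and depth without mitochondrial ribosomal RNA, and -0.13 without control 2. Mycn divided by Max was 0.724 ± 0.0771 in mutants and 0.411 ± 0.0577 in controls (SD, n = 3 each) without overlap, whereas Myc divided by Max overlapped. Mlx (Entrez Gene 21428, chr11:101087277-101092207), the partner of the Mondo proteins, had 3.78, 2.70 and 3.94 RPKM in mutants, against 4.31, 4.92 and 3.91 RPKM in controls. Mutant 3 exceeded control 3, and the difference of -0.31 (SE 0.18) did not pass (limma adjusted p = 0.352). Without mutant 2 it was -0.16. Of the Mlx exon bases, 19.3% overlap Psmc3ip on the other strand, and the sources used here do not say how counting treated strand, so the level of Mlx is uncertain.

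The repressor side of the network held 1 gene at a level near those of Max and Myc and 4 at lower levels. Mga (Entrez Gene 29808, chr2:119897228-119969581), a Max partner that belongs to a Polycomb complex, had 31.01, 27.3 and 32.6 RPKM in mutants, against 33.4, 29.9 and 38.2 RPKM in controls. The groups overlapped (difference -0.15, SE 0.14, limma adjusted p = 0.534). Under the 3 other scalings the difference lay between -0.051 and -0.0056, and when 1 library was left out between -0.24 and -0.063. Mxi1 (Entrez Gene 17859, chr19:53310518-53375810), which recruits Sin3 corepressors, had 9.10, 9.05 and 11.3 RPKM in mutants, against 13.2, 13.1 and 11.2 RPKM in controls. Mutants 1 and 2 lay below all controls and mutant 3 lay just above control 3. Means were 9.81 ± 1.28 RPKM in mutants and 12.5 ± 1.12 RPKM in controls (SD, n = 3 each), with a difference of -0.34 (SE 0.14, limma adjusted p = 0.229), or -0.21 under quantile normalization.

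Mxd4 (Entrez Gene 17122, chr5:34173883-34187720), a repressor linked to cells leaving the cycle, had the lowest log2 difference of the 10 members. It had 2.49, 2.87 and 3.93 RPKM in mutants, against 4.72, 3.87 and 4.65 RPKM in controls, from 89 to 165 reads per library. Mutant 3 exceeded control 2, so the groups overlapped, and the difference of -0.46 (SE 0.18, interval -0.86 to -0.07) did not pass (limma adjusted p = 0.198). Mxd3 (Entrez Gene 17121, chr13:55325168-55329823), the Mxd gene usually expressed in cycling cells, had 2.37, 3.27 and 2.18 RPKM in mutants, against 1.98, 2.77 and 1.31 RPKM in controls. The groups overlapped at 48 to 130 reads per library (difference 0.32, SE 0.23, limma adjusted p = 0.441). The difference was 0.11 without control 3, 0.53 without control 2 and 0.18 without mutant 2. Mnt (Entrez Gene 17428, chr11:74830920-74845725), a repressor found in most cells, had 5.75, 3.99 and 4.78 RPKM in mutants, against 4.14, 4.47 and 5.08 RPKM in controls. Its difference of 0.07 (SE 0.17, interval -0.30 to 0.43, limma adjusted p = 0.837) was -0.052 without mutant 1, and it was 0.16 to 0.18 under the 3 other scalings.

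The summed level of Mga, Mxi1, Mxd3, Mxd4 and Mnt was 50.7, 46.5 and 54.8 RPKM in mutants, against 57.5, 54.1 and 60.5 RPKM in controls. Mutant 3 exceeded control 2, so the groups overlapped. Without Mga, which made up most of it, the sum was 19.7, 19.2 and 22.2 RPKM in mutants, against 24.1, 24.2 and 22.3 RPKM in controls. The groups did not overlap, though mutant 3 and control 3 lay close together. The Myc family sum divided by the sum with Mga was 1.27, 1.298 and 1.31 in mutants, against 1.12, 1.23 and 1.16 in controls. Divided by the sum without Mga it was 3.28, 3.15 and 3.24 in mutants, against 2.68, 2.74 and 3.14 in controls. Neither ratio overlapped between the groups, though mutant 2 and control 3 nearly touched in the ratio without Mga (3.15 and 3.14). Both ratios are again a description without a test. By mean RPKM, which is per length, the order in mutants ran from Myc through Max, Mga, Mycn, Mxi1, Mnt, Mlx, Mxd4 and Mxd3 to Mycl. Neighbours overlapped between Myc and Max, Mga and Mycn, Mlx and Mxd4, and Mxd4 and Mxd3. The order in controls was the same except that Mxd4 stood above Mlx. There Mycn did not overlap Mga above it, Max overlapped Myc and Mga, and Mnt, Mxd4 and Mlx overlapped in a row.

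**Figure D4:**
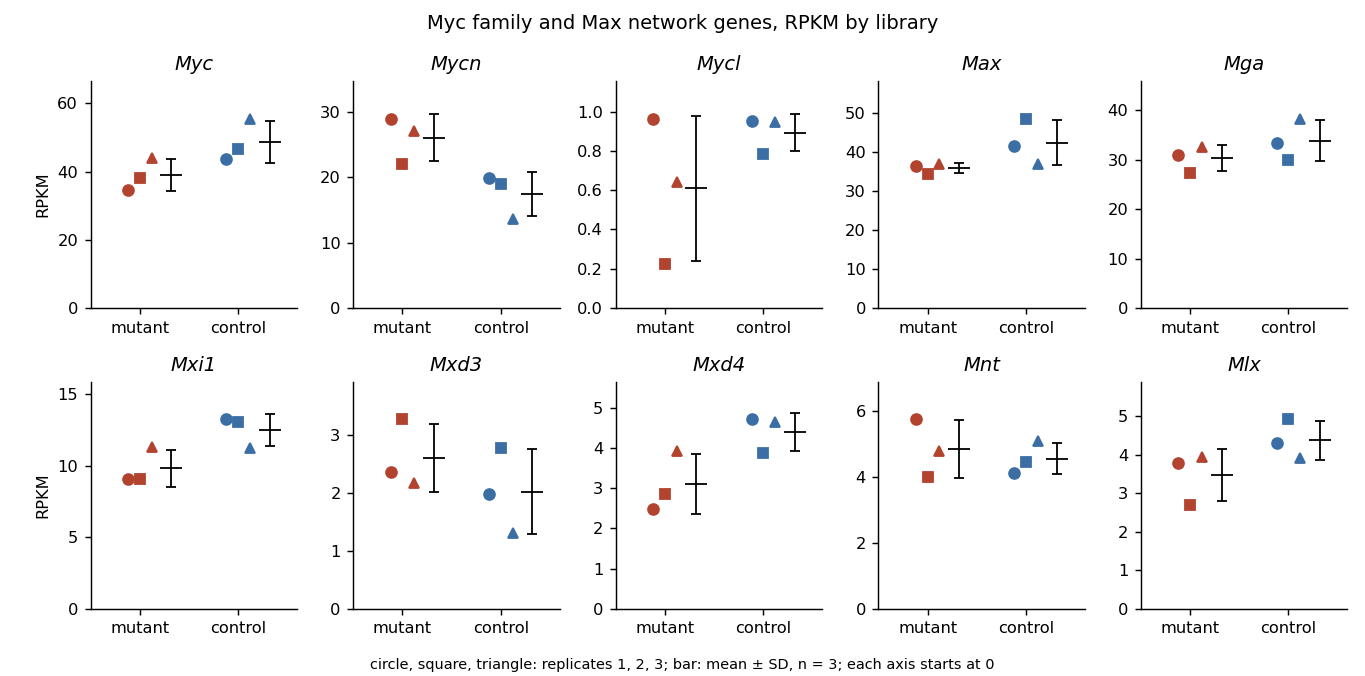
RPKM of the 10 members in each pool, 1 panel per gene with its own axis from 0, mutant pools left of control pools, with the mean and SD of each group. Mycn is higher in all 3 mutant pools (22.1 to 29.0 RPKM) than in the control pools (13.6 to 19.9 RPKM), and the groups overlap or nearly touch for the other members.

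Of the network genes outside the 10, the Mondo genes encode the sugar-responsive partners of Mlx. Mlxip (Entrez Gene 208104) had 5.78, 5.12 and 6.08 RPKM in mutants, against 6.89, 7.46 and 8.77 RPKM in controls. The groups did not overlap and the difference of -0.41 did not pass (limma adjusted p = 0.172). Mlxipl had 1.24, 0.690 and 0.983 RPKM in mutants, against 0.660, 0.281 and 0.799 RPKM in controls (difference 0.46, limma adjusted p = 0.324), and Mxd1 had 4.01, 3.54 and 5.88 RPKM in mutants, against 6.48, 6.38 and 4.96 RPKM in controls (difference -0.39, limma adjusted p = 0.285). Both overlapped between the groups.

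E-boxes in the members' promoters are shown because Myc and Max proteins bind this motif. The motif CACGTG, which reads alike on both strands, was searched in RefSeq promoter windows of GRCm38.p6, from 250 bases before to 50 bases after each start. It was present in 4 of 11 windows of 9 members, in Max, Mlx, Mnt and Mxd4, against 7.15% of all 32851 windows and 1263 of the 12631 windows of tested genes. No window was available for Myc, so its promoter was not searched. Capitals mark the motif, written in the direction of the gene.
Max, chr12:76962246-76962251, minus strand: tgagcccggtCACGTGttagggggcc
Mlx, chr11:101087250-101087255, plus strand: tgggttggatCACGTGactgagcctc
Mnt, chr11:74830801-74830806, plus strand: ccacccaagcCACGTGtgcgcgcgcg
Mxd4, chr5:34187924-34187929, minus strand: gctgggccacCACGTGctgttgctaa
The E-box began 3 bases before the start in Max, 40 in Mlx, 123 in Mnt and 219 in Mxd4, counted from the RefSeq start. For Max that start lies outside the GENCODE locus given above, and the end of its window was not found in the GENCODE transcripts. Of these genes, Max, Mlx and Mxd4 had lower means in mutants and Mnt did not, and none passed the test. A positive log2 difference was found for 31.9% of all tested genes, so most genes were lower in mutants on this RPKM scale. The median of all genes was -0.12 on it. It was -0.032 under median-of-ratios scaling, -0.020 under quantile normalization and -0.013 with depth without mitochondrial ribosomal RNA.

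Genes downstream of the network were read from lists chosen with earlier results of these data known, so their counts are not independent evidence. Of 68 Myc-activated growth genes, 1 was called higher and 1 lower in mutants, where 1.32% of all tested genes were called higher and 1.81% lower. Without control 3, 1 was called higher and 5 lower. The list's median log2 difference was -0.20 against -0.12 for all genes, with 24 above and 44 below that median. The groups did not overlap in 2 genes higher and 14 genes lower in mutants, against 7.06% and 18.0% of all tested genes. Odc1, the first enzyme of polyamine synthesis, had 55.0, 46.2 and 50.6 RPKM in mutants, against 32.9, 34.3 and 28.2 RPKM in controls. It rose in mutants, with all mutant pools above all controls, and the log2 difference was 0.66 (SE 0.13, limma adjusted p = 0.0196). Tfrc, the transferrin receptor for iron uptake, had 38.9, 33.3 and 27.9 RPKM in mutants, against 53.8, 50.6 and 50.4 RPKM in controls. It fell in mutants without overlap (difference -0.63, SE 0.14, limma adjusted p = 0.0342). Odc1 passed in 11 and Tfrc in 9 of 17 alternatives. Tfrc did not pass under any of the 3 other scalings (limma adjusted p from 0.0747 to 0.107), and under the leave-one-out fits limma adjusted p reached 0.0921 for Odc1 and 0.154 for Tfrc.

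The remaining lists held no called gene in limma, and the counts of genes with an unadjusted p under 0.05 given for them stand against 19.6% of all tested genes. Of 18 cofactors and corepressors, 2 had an unadjusted p under 0.05, none passed under voom, and the list's median difference was -0.20. The lowest p values were those of Trrap, a scaffold of histone acetyltransferase complexes (14.4 ± 1.54 RPKM in mutants and 18.2 ± 1.34 RPKM in controls, SD, n = 3 each, difference -0.33, limma adjusted p = 0.215), and Smarcb1, a chromatin remodelling subunit that binds Myc (difference -0.37, limma adjusted p = 0.233). Smarcb1 passed when control 3 was left out (difference -0.52, limma adjusted p = 0.0341), as did Wdr5 and Cdk9, named after their values were seen (limma adjusted p = 0.0452 and 0.0346). Of 14 genes for turnover of Myc proteins, 2 had an unadjusted p under 0.05, none passed under voom, and the median was -0.13. They were the ubiquitin ligase genes Fbxl14 (difference -0.35, limma adjusted p = 0.170) and Trim32 (-0.31, limma adjusted p = 0.234).

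Of 7 genes that Myc is known to repress, 6 were tested, 2 had an unadjusted p under 0.05, none passed under voom, and the median was 0.16. Cdkn2c, an inhibitor of cyclin-dependent kinases, had 2.42, 2.86 and 2.59 RPKM in mutants, against 1.72, 2.03 and 1.74 RPKM in controls, without overlap (difference 0.42, limma adjusted p = 0.200). Ndrg2 differed by -0.38 (limma adjusted p = 0.207). Both Mlx target genes, which respond to glucose, were tested, 1 with an unadjusted p under 0.05 and none passing under voom. Arrdc4 differed by -0.36 (limma adjusted p = 0.217) and Txnip by -0.0034 (limma adjusted p = 0.992). Of 6 genes of cycling cells, 2 had an unadjusted p under 0.05 and the median was -0.07. Mki67, which encodes the proliferation antigen Ki-67, had 113, 117 and 128 RPKM in mutants, against 73.8, 62.1 and 103 RPKM in controls. Its groups did not overlap, and the difference of 0.61 did not pass (limma adjusted p = 0.0912). It passed under voom on recovered reads (0.62, adjusted p = 0.0186) and when control 3 was left out (0.81, limma adjusted p = 0.00202). Mcm2, a subunit of the replicative helicase, differed by -0.41 (limma adjusted p = 0.180).

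**Figure D5:**
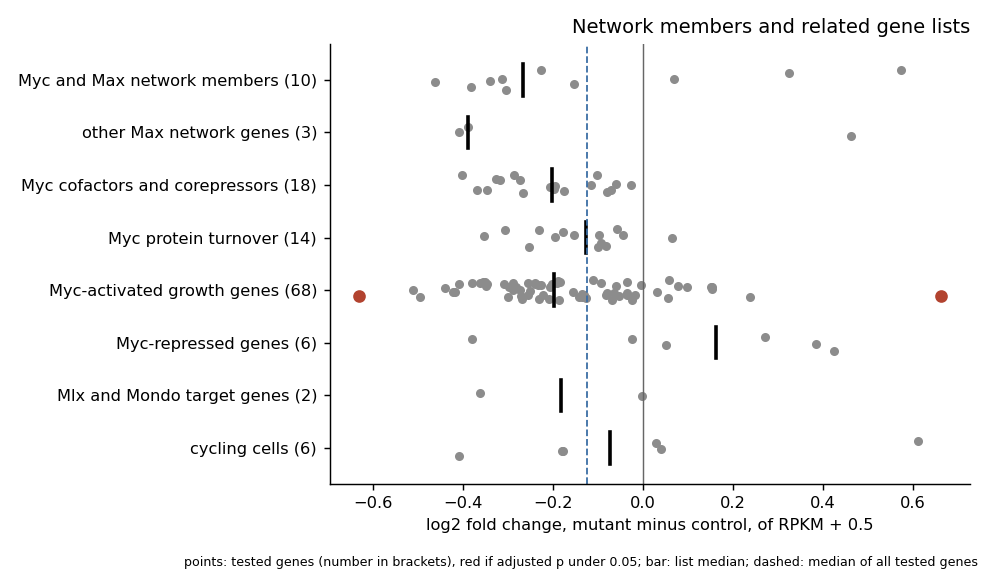
Log2 difference, mutant minus control, of each tested gene in the network and in the related lists, with the list's median as a bar and the median of all tested genes (-0.12) as a line. Odc1 at 0.66 and Tfrc at -0.63 are the genes that passed, both in the list of Myc-activated growth genes.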

How the data were processed

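Sorted progenitor RNA of 6 pools was amplified, and paired reads of 100 bases were run over 2 lanes, per the labels' protocols. The authors deposited 1 table of RPKM values. Per the submitters' processing notes, the reads were handled with FastQC and limma against mm10. The deposited column names hold the word subread. The counting tool, its annotation and its use of strand are not stated in the sources used here. Members and lists were chosen with earlier results of these data known. Entrez Gene IDs were matched to symbols for 25275 of 27179 entries.

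The 13463 genes averaging 0.5 RPKM or more were fitted as log2(RPKM + 0.5), which understates changes of low genes, with limma 3.58.1 (R 4.3.3, trended variance, two-sided) on genotype, with Benjamini-Hochberg adjustment over all of them and a threshold of 0.05. Before use, the fit was tested on simulated data. Whole reads were recovered from the RPKM grid (tolerance 0.01 reads) for voom and for depth, which covers counting only, and recovered reads came to 99.7% of depth. Named genes were all members, 3 other network genes, the targeted locus and, per pathway list, up to 4 called genes or, with fewer than 2 called, the 2 of lowest p. Marker lists were given by their sums, except for Six2, Cited1 and Xist, and for Itga8, Wt1 and Eya1, which were named after their values were seen. Alternatives changed the pseudocount, filter, scaling, variance model, values tested, replicate block or libraries. Seed sites were searched in the longest annotated 3' UTR of GENCODE M21 and E-boxes in RefSeq windows, with Python 3.11.15.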

Additional observations from a re-analysis of the deposited data

How the results depend on the processing

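Over 17 alternatives, the 10 members kept their direction and their side of the threshold in 164 of 169 fits with a value, Mycn newly passed in 4 and Mnt reversed in 1. The number of members that passed was 1 in place of 0 under median-of-ratios scaling, quantile normalization, depth without mitochondrial ribosomal RNA and voom on recovered reads. Without mutant 1 the log2 difference of Mnt was -0.052, and without 1 library at a time it lay between -0.052 and 0.19. The 422 genes that passed in all were 143 without a filter on low values, 690 with voom, and 148 to 1083 when 1 library was left out. The split was 178 higher and 244 lower, against 262 and 171 under median-of-ratios scaling, 264 and 163 under quantile normalization, and 268 and 149 with depth without mitochondrial ribosomal RNA. Under the median-of-ratios scaling the median of all genes was -0.03 and that of the members -0.17. Txnip, at -0.0034, was at 0.10, 0.13 and 0.12 under these scalings, and between -0.15 and 0.17 when 1 library was left out, with positive values without mutant 2 (0.12) and control 2 (0.17). The causes were not tested.

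The main fit did not pair the pools by replicate number. Deviations of same-numbered pools correlated at 0.05, 0.16 and 0.15, and those of pools with unlike numbers at -0.15 to -0.0063. Each mutant pool correlated best with its own number, a hint from the data and not from the design. These values cannot settle whether the pools were paired. With the replicate block, 393 genes and 0 members passed, and Mycn had a limma adjusted p of 0.0938. Depth limits Mycl, Mxd3 and Mxd4, whose lowest libraries held 22, 48 and 89 reads.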
